A study of Homo sapiens with 38 samples.

Results

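ZMYM2, SLC32A1, NFE4, EXOC6B, ERVFRD-1 and ZIM2 are 6 of the 90127 features counted in small RNA libraries of 2 human acute myeloid leukaemia lines and their vesicles. They were chosen by their measured counts, which were much lower in vesicle total RNA, or in the glycan pull-down of cells, than in cell total RNA. They were found in the table by Ensembl gene identifier without its version. HL60 is a promyelocytic line and KG1a a line with primitive features. For each line, small extracellular vesicles (sEV), large extracellular vesicles (lEV) and the cells themselves were sequenced both after rPAL and as total RNA. In rPAL, periodate opens the sialic acids of glycans to aldehydes that take up a biotin tag, by which RNA bearing sialylated glycans is pulled down. Cells were grown with 10% fetal bovine serum, while the cells that gave vesicles were kept without serum for 2 days, a difference in culture that runs alongside every contrast of vesicles with cells. The 38 libraries form 12 groups, with 4 libraries in each KG1a cell group and 3 in every other group. The labels do not say that replicates came from separate cultures, and the p-values therefore take only the variation among these samples into account, which may be technical.

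The loci encode unrelated proteins, most of them known from other tissues. In small RNA libraries a count on such a gene is a short read, which can come from a fragment of its RNA or from any small RNA that matches the locus. Vesicles bud from the cell with a selection of its RNA, large ones mainly from the plasma membrane and small ones in good part from endosomes, and sialoglycoRNA is known as a cell surface form of small RNA. In these bulk samples fewer cells or vesicles carrying an RNA and less RNA in each cannot be told apart.

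Library totals ran from 2380745 to 15532758 counts in rPAL libraries and from 5498168 to 14892937 in total RNA libraries. Levels are given as CPM, in which the counts of each library are scaled to the same total. Line markers were scarce in the small RNA fraction. The stem cell marker CD34 averaged 0.070 CPM in HL60 cells and 2.95 CPM in KG1a cells, and the granule enzyme MPO averaged 2.49 CPM in HL60 cells and 0.018 CPM in KG1a cells. ELANE had no count in the total RNA of either line. FLT3 and KIT, listed as markers of KG1a, were higher in HL60 cells. FLT3 averaged 0.302 CPM in HL60 cells and 0 CPM in KG1a cells, and KIT averaged 0.186 and 0.072 CPM. The remaining listed markers of the lines averaged at most 3.04 CPM. The markers of red cells, platelets and liver summed to at most 0.672 CPM in any cell total library.

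**Figure D1:**
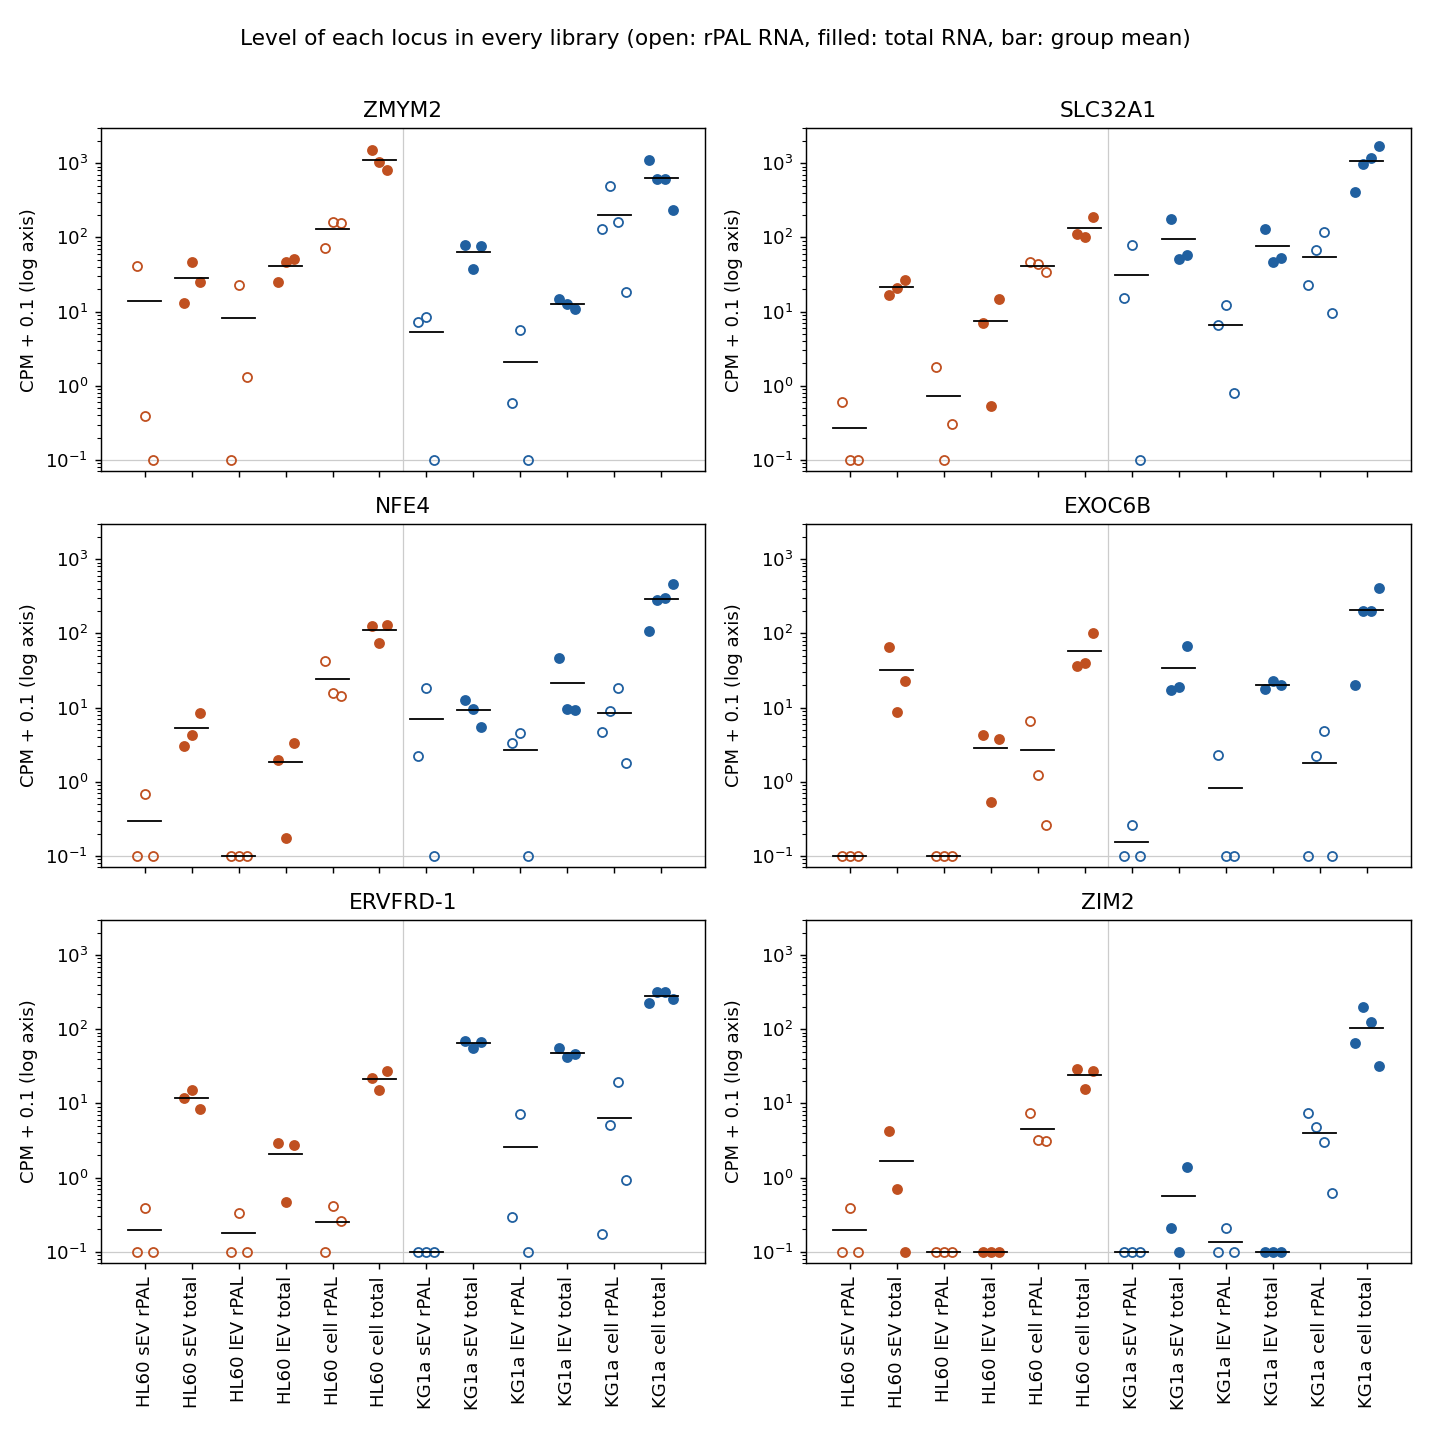
CPM plus 0.1, on a log axis, of each locus in the 38 libraries by group, with HL60 in orange on the left and KG1a in blue on the right. Open circles are rPAL libraries, filled circles are total RNA libraries, black bars are group means, and points on the lowest grey line are libraries with no count. Cell total RNA is the highest group of its line in every panel.

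ZMYM2 (ENSG00000121741, chr13:19958670-20091829, plus strand, GRCh38) encodes a MYM-type zinc finger protein of transcriptional corepressor complexes that is fused to FGFR1 in a myeloid neoplasm. It held 96829 counts, rank 308 among all features, of which 82.6% lay in cell total RNA. HL60 cells had 72.0, 162 and 156 CPM after rPAL, against 1507, 1026 and 817 CPM in total RNA. KG1a cells had 132, 488, 160.3 and 18.2 CPM after rPAL, against 1094, 621, 605 and 235 CPM in total RNA, so the groups overlapped in KG1a and not in HL60. In HL60 vesicles the total RNA held 13.1, 47.0 and 24.9 CPM in sEV and 25.2, 47.1 and 51.0 CPM in lEV. KG1a sEV had 78.4, 37.7 and 76.4 CPM, all above the 14.6, 12.5 and 10.8 CPM of KG1a lEV. The vesicle pull-downs were uneven, with 41.4, 0.295 and 0 CPM in HL60 sEV, 0, 22.9 and 1.21 CPM in HL60 lEV, 7.20, 8.31 and 0 CPM in KG1a sEV and 0.491, 5.49 and 0 CPM in KG1a lEV. One library carried nearly all of the signal in each HL60 vesicle pull-down. Along the order of group means, every neighbouring pair of groups overlapped in range.

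SLC32A1 (ENSG00000101438, chr20:38724462-38729372, plus strand) encodes the transporter that loads GABA and glycine into synaptic vesicles of inhibitory neurons. It held 66683 counts, 84.9% of them in cell total RNA. HL60 cells had 46.7, 43.9 and 33.8 CPM after rPAL, against 111, 101 and 188 CPM in total RNA. KG1a cells had 23.0, 66.6, 118 and 9.34 CPM after rPAL, against 416, 986, 1174 and 1733 CPM in total RNA. The rPAL libraries lay below every total RNA library of the same cells in both lines. HL60 sEV total RNA had 16.6, 20.8 and 26.9 CPM, above the 6.88, 0.439 and 14.5 CPM of HL60 lEV. KG1a sEV had 176, 50.4 and 57.7 CPM, which overlapped the 131, 46.6 and 52.0 CPM of KG1a lEV. The vesicle pull-downs held 0.505, 0 and 0 CPM in HL60 sEV, 1.69, 0 and 0.201 CPM in HL60 lEV, 15.0, 79.4 and 0 CPM in KG1a sEV, and 6.58, 12.3 and 0.697 CPM in KG1a lEV. The third KG1a sEV pull-down had no count while the second was above the 3 pull-downs of KG1a lEV.

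NFE4 (ENSG00000230257, chr7:102973437-102988856, plus strand) is known for an erythroid factor that acts with TFCP2 at the fetal globin promoter. The deposited table and RefSeq list it as a long noncoding RNA, and GENCODE 29 as protein-coding. It held 20474 counts, 88.9% of them in cell total RNA. HL60 cells had 41.7, 15.4 and 14.3 CPM after rPAL, against 124, 74.2 and 129.6 CPM in total RNA. KG1a cells had 4.64, 8.81, 18.0 and 1.67 CPM after rPAL, against 107, 279, 302 and 455 CPM in total RNA. No rPAL library reached the total RNA libraries of its line. Total RNA of HL60 sEV had 2.91, 4.19 and 8.36 CPM and of HL60 lEV 1.84, 0.0732 and 3.25 CPM. In KG1a, sEV had 12.4, 9.32 and 5.44 CPM, and lEV had 46.1, 9.46 and 9.07 CPM, of which the first library stood apart. After rPAL, NFE4 had no count in HL60 lEV, 2 counts in one HL60 sEV library, 2.10, 18.4 and 0 CPM in KG1a sEV and 3.24, 4.42 and 0 CPM in KG1a lEV. In NFE4 as in SLC32A1 the second KG1a sEV pull-down was the highest and the third was at 0.

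EXOC6B (ENSG00000144036, chr2:72175984-72826041, minus strand) encodes a subunit of the exocyst, the complex that tethers secretory vesicles to the plasma membrane. It held 14804 counts, 83.2% of them in cell total RNA. HL60 cells had 6.41, 1.14 and 0.157 CPM after rPAL, against 35.9, 39.8 and 99.8 CPM in total RNA. KG1a cells had 0, 2.11, 4.69 and 0 CPM after rPAL, against 20.2, 203, 203 and 412 CPM in total RNA. The first KG1a cell library was about as low as vesicles and apart from the other 3. HL60 sEV total RNA had 65.1, 8.63 and 22.5 CPM, overlapping HL60 cells, while HL60 lEV had 4.19, 0.439 and 3.70 CPM. KG1a sEV had 17.3, 19.1 and 66.6 CPM and KG1a lEV had 17.9, 22.9 and 19.98 CPM, both overlapping the lowest cell library. The vesicle pull-downs of HL60 held no EXOC6B count, and those of KG1a held 1 count in sEV and 22 counts, all in 1 library, in lEV.

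ERVFRD-1 (ENSG00000244476, chr6:11102489-11111732, minus strand) is the domesticated retroviral envelope gene of syncytin-2, which fuses trophoblasts in the placenta by binding MFSD2A. It held 18205 counts, 77.9% of them in cell total RNA. HL60 cells had 0, 0.311 and 0.157 CPM after rPAL, against 21.8, 15.0 and 27.6 CPM in total RNA. KG1a cells had 0.0761, 5.05, 19.2 and 0.837 CPM after rPAL, against 223, 313, 313 and 255 CPM in total RNA, the tightest total RNA group of any of the loci in KG1a cells relative to its mean. HL60 sEV total RNA had 11.6, 15.1 and 8.26 CPM, overlapping HL60 cells at 1 library, and HL60 lEV had 2.85, 0.366 and 2.66 CPM. KG1a sEV had 69.9, 55.7 and 67.8 CPM and KG1a lEV 55.8, 42.2 and 46.1 CPM, which met at their edges. In the vesicle pull-downs ERVFRD-1 had no count in KG1a sEV, 0.197, 7.22 and 0 CPM in KG1a lEV, and 1 count each in HL60 sEV and HL60 lEV.

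ZIM2 (ENSG00000269699, chr19:56774547-56840729, minus strand) is a paternally expressed zinc finger gene that shares its start with PEG3 in an imprinted domain. It held 6367 counts, the fewest of the loci, and 94.97% of them lay in cell total RNA. HL60 cells had 7.25, 3.11 and 2.99 CPM after rPAL, against 28.7, 15.7 and 27.4 CPM in total RNA. KG1a cells had 7.30, 4.77, 2.93 and 0.515 CPM after rPAL, against 64.9, 199, 124 and 32.0 CPM in total RNA. The rPAL and total RNA libraries did not overlap in either line. ZIM2 had no count in any of the 6 lEV total RNA libraries. With a floor of 3 counts over the group, ZIM2 was at least 312-fold lower in HL60 lEV than in HL60 cells and at least 1164-fold lower in KG1a lEV than in KG1a cells. HL60 sEV total RNA had 4.18, 0.599 and 0 CPM and KG1a sEV 0.107, 0 and 1.27 CPM. The 12 vesicle pull-downs held 2 ZIM2 counts in all, 1 in HL60 sEV and 1 in KG1a lEV.

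Within the loci the share of the cell total RNA level that was left ranged widely. These are the values that chose the members, so they are a description only. In HL60, sEV total RNA held 2.54% of the cell mean for ZMYM2 and 4.71% for NFE4, but 54.8% for EXOC6B and 54.3% for ERVFRD-1. The last pair overlapped the cell libraries of HL60. In each the overlap rested on 1 sEV library: without the first, EXOC6B was left at 26.6%, and without the second, ERVFRD-1 was left at 46.4%, and then no sEV library reached the cells. HL60 lEV held 1.58% of the cell mean for NFE4, 3.68% for ZMYM2, 4.75% for EXOC6B, 5.45% for SLC32A1 and 9.13% for ERVFRD-1. In KG1a, the share in sEV ran from 0.438% for ZIM2 to 23.3% for ERVFRD-1, and in lEV from 1.98% for ZMYM2 to 17.4% for ERVFRD-1 among the loci with a count. Of the loci, ERVFRD-1 thus kept the largest share in KG1a vesicles of both sizes and in HL60 lEV.

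The cell pull-down gave a different order from the vesicles. In HL60 cells rPAL RNA held 0.727% of the total RNA mean for ERVFRD-1 and 4.39% for EXOC6B, against 31.1% for SLC32A1, 21.8% for NFE4, 18.6% for ZIM2 and 11.6% for ZMYM2. In KG1a cells it held 0.813% for EXOC6B, 2.27% for ERVFRD-1, 2.90% for NFE4, 3.69% for ZIM2, 5.03% for SLC32A1 and 31.2% for ZMYM2. EXOC6B and ERVFRD-1 kept the lowest shares after rPAL in both lines, while they kept the highest in sEV total RNA. The EXOC6B share in KG1a sEV, 16.4%, drew mainly on 1 library at 66.6 CPM, against 17.3 and 19.1 CPM.

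**Figure D2:**
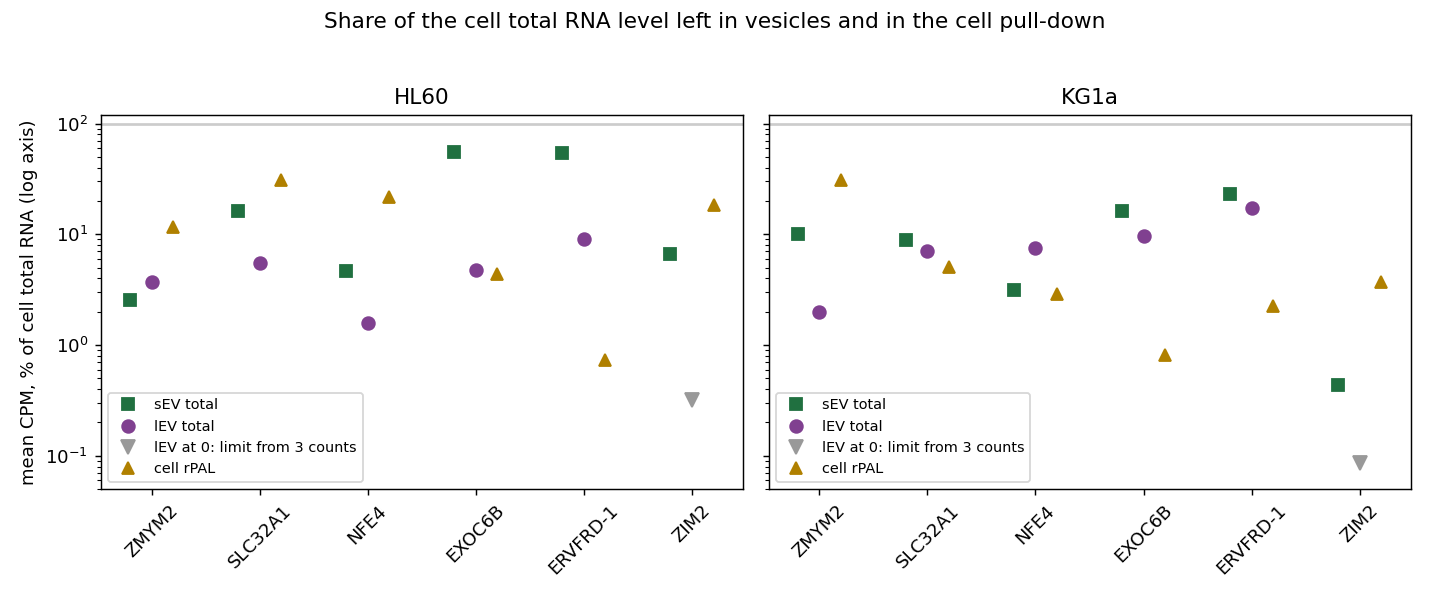
Mean CPM in sEV total RNA (squares), lEV total RNA (circles) and cell rPAL RNA (triangles) as a percentage of the mean in total RNA of the same cells, on a log axis, for HL60 on the left and KG1a on the right. EXOC6B and ERVFRD-1 sit at 54.8% and 54.3% in HL60 sEV and near or below 5% after rPAL. Grey triangles are upper limits for ZIM2 in lEV, from 3 counts over the group.

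All 6 loci entered the edgeR fits of these 6 contrasts, with their counts scaled by trimmed means (TMM) and low features filtered out. On the fitted log2 scale every locus was lower in each contrast, with a median over the loci of -3.54 in HL60 sEV, -3.76 in HL60 lEV and -3.02 in HL60 cell rPAL RNA. In KG1a the medians were -4.52 in sEV, -3.86 in lEV and -5.25 in cell rPAL RNA. For ZIM2 in lEV the fitted value depends on how 0 counts are handled. As these contrasts chose the loci, no calls are counted in them. In KG1a sEV the fitted values depended on the scaling: ERVFRD-1 was at -3.17 with TMM and -2.09 with library totals alone, and the median of all features moved by 1.14 between these scalings.

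The lines were set against each other to ask whether the loci differ between HL60 and KG1a cells. The contrast itself did not choose the members, but the cell total RNA libraries did take part in the choice. HL60 cells had less of 4 loci than KG1a cells, while 39.9% of all tested features were called in either direction and 21.5% were called lower. ERVFRD-1 averaged 21.5 ± 6.29 CPM in HL60 cells and 276 ± 44.6 CPM in KG1a cells (SD, n = 3 and 4). It fell by 3.60 ± 0.29 on the log2 scale (SE, edgeR adjusted p = 1.249e-08), with no overlap. SLC32A1 averaged 133 ± 47.2 CPM in HL60 cells and 1077 ± 543 CPM in KG1a cells, a log2 fold change of -2.93 ± 0.39 (adjusted p = 1.922e-05), again with no overlap. ZIM2 averaged 23.9 ± 7.15 CPM in HL60 cells and 105 ± 73.5 CPM in KG1a cells, and its log2 fold change was -2.01 ± 0.45 (adjusted p = 0.001901). NFE4 averaged 109 ± 30.6 CPM in HL60 cells and 286 ± 143 CPM in KG1a cells, a log2 fold change of -1.30 ± 0.36 (adjusted p = 0.007692), with overlap through the first KG1a library. These 4 calls held when any 1 library was left out. The median log2 fold change over the 6 loci was -1.88, against -0.0088 over all tested features. As these libraries took part in choosing the loci, the gap between the medians is a description only.

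EXOC6B and ZMYM2 did not pass the threshold between the cells of the lines in the main fit. With the replicate as a block, 5 of the 6 loci were called instead of 4, where 40.5% of all tested features were called. EXOC6B averaged 58.5 ± 35.8 CPM in HL60 cells and 209 ± 160 CPM in KG1a cells, with a log2 fold change of -1.76 ± 0.73 (edgeR adjusted p = 0.07993). ZMYM2 averaged 1117 ± 354 CPM in HL60 cells and 639 ± 352 CPM in KG1a cells, and its log2 fold change of 0.87 ± 0.42 had an adjusted p of 0.1206. Both rest on the first KG1a cell library, which was the lowest of its group for EXOC6B and the highest for ZMYM2. Without it EXOC6B was lower in HL60 cells (log2 fold change -2.17, edgeR adjusted p = 8.334e-05) and ZMYM2 was higher (log2 fold change 1.34, edgeR adjusted p = 0.001109). Of all tested features 41.1% were called without that library. The same library was the lowest of its group for SLC32A1, NFE4 and ERVFRD-1.

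In lEV total RNA, 3 of the 5 loci that passed the count filter differed between the lines, where 16.1% of all tested features were called. ZIM2 had no count in either line. ZMYM2 averaged 41.1 ± 13.9 CPM in HL60 lEV and 12.6 ± 1.88 CPM in KG1a lEV (SD, n = 3 each) with no overlap, and rose by 2.74 ± 0.59 on the log2 scale (SE, edgeR adjusted p = 0.007633). ERVFRD-1 averaged 1.9598 ± 1.38 CPM in HL60 lEV and 48.0 ± 6.999 CPM in KG1a lEV, with a log2 fold change of -3.71 ± 0.70 (edgeR adjusted p = 0.003717). NFE4 averaged 1.72 ± 1.59 CPM in HL60 lEV and 21.5 ± 21.2 CPM in KG1a lEV, with a log2 fold change of -2.90 ± 0.91 (edgeR adjusted p = 0.04841). The ERVFRD-1 call held without any 1 library. That of ZMYM2 was lost without the third KG1a library (adjusted p = 0.0511) and when libraries were scaled by their totals alone (adjusted p = 0.05818). NFE4 lost its call without the first or the second KG1a library (adjusted p = 0.2159 and 0.05102) or the first or the third HL60 library (adjusted p = 0.06473 and 0.09064). EXOC6B and SLC32A1 had log2 fold changes of -1.963 and -2.68 with edgeR adjusted p-values of 0.05907 and 0.05278. EXOC6B passed without the first HL60 library (adjusted p = 0.0223) and SLC32A1 without the second (adjusted p = 0.03336). In these fits 14.5% and 15.7% of all tested features were called.

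In sEV total RNA no locus differed between the lines by edgeR at an adjusted p under 0.05, where 1.38% of all tested features were called. Of the 5 loci tested, 1 had an unadjusted p under 0.05 and DESeq2 called 0. ERVFRD-1 averaged 11.7 ± 3.42 CPM in HL60 sEV and 64.5 ± 7.68 CPM in KG1a sEV, without overlap, and its log2 fold change was -1.69 ± 0.62 (edgeR unadjusted p = 0.0241, adjusted p = 0.2559). For SLC32A1 the libraries did not overlap either, at 21.4 ± 5.20 CPM in HL60 sEV and 94.8 ± 70.7 CPM in KG1a sEV, with a log2 fold change of -1.42 ± 0.69 (edgeR unadjusted p = 0.07045, adjusted p = 0.3851). EXOC6B averaged 32.1 ± 29.4 CPM in HL60 sEV and 34.3 ± 28.0 CPM in KG1a sEV. The differences between sources of this line effect were not tested.

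**Figure D3:**
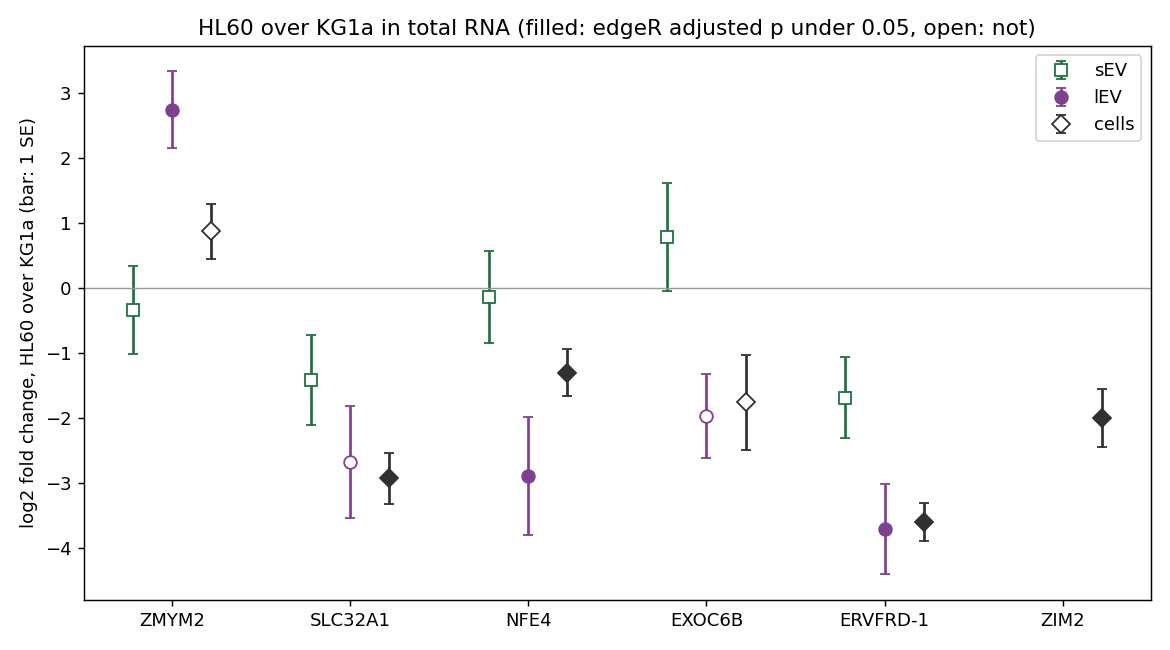
Log2 fold change of HL60 over KG1a in total RNA for each locus, with bars of 1 SE of the edgeR fit, in sEV (green squares), lEV (purple circles) and cells (black diamonds). Filled symbols have an adjusted p under 0.05. ERVFRD-1 lies at -3.71 in lEV and -3.60 in cells, while ZMYM2 is above 0 in both, at 2.74 and 0.87.

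Pull-down from vesicles was compared with vesicle total RNA, a contrast that did not choose the members although the vesicle total RNA libraries did take part in the choice. Loci with 0 to 2 counts in a pull-down passed the count filter through the total RNA libraries alone, so their direction was fixed in advance. Each call made was lost when 1 or another library was left out. In HL60 sEV, EXOC6B, ERVFRD-1 and SLC32A1 were called lower after rPAL, all with at most 2 counts there, where 16.3% of all tested features were called lower. EXOC6B had no count in HL60 sEV rPAL RNA against 32.1 ± 29.4 CPM in HL60 sEV total RNA, at least 104-fold lower at a floor of 3 counts over the group (edgeR adjusted p = 0.02887). ERVFRD-1 had 1 count and SLC32A1 had 2 counts over the 3 rPAL libraries, against 276 and 545 counts over the 3 total RNA libraries (edgeR adjusted p = 0.03389 and 0.04188). ERVFRD-1 and SLC32A1 lost their calls without any 1 of the 6 libraries, with adjusted p-values of 0.06332 to 0.1197 for ERVFRD-1 and 0.05315 to 0.1156 for SLC32A1. EXOC6B lost its call without the first or the second rPAL library (adjusted p = 0.05315 and 0.06478) or the first or the third total RNA library (adjusted p = 0.07394 and 0.06127). NFE4 and ZMYM2 had log2 fold changes of -4.56 ± 1.65 and -1.09 ± 2.01 (edgeR adjusted p = 0.09709 and 0.771).

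In KG1a sEV, ERVFRD-1 and EXOC6B were called lower after rPAL, with at most 1 count there. Of all tested features 6.13% were called lower. Both loci passed the count filter through total RNA alone, so here too the direction was fixed in advance and the calls are a description only. ERVFRD-1 had no count after rPAL against 64.5 ± 7.68 CPM in total RNA, at least 255-fold lower at a floor of 3 counts over the group (edgeR adjusted p = 0.001644). EXOC6B had 1 count over the 3 rPAL libraries against 900 counts over the 3 total RNA libraries (edgeR adjusted p = 0.01037). Both calls were lost without the first or the second rPAL library (adjusted p = 0.1184 and 0.104 for each), and EXOC6B also without the first or the third total RNA library (adjusted p = 0.05577 and 0.06886). NFE4 and SLC32A1, by contrast, overlapped between rPAL and total RNA of KG1a sEV. NFE4 averaged 6.84 ± 10.1 CPM after rPAL and 9.06 ± 3.50 CPM in total RNA, with a log2 fold change of -0.89 ± 1.49 (edgeR adjusted p = 0.8062).

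In lEV no locus was called between rPAL and total RNA. In HL60 lEV, where 31.3% of all tested features were called, ZMYM2 and SLC32A1 passed the count filter, with log2 fold changes of -3.76 ± 1.72 and -4.79 ± 1.95 (edgeR adjusted p = 0.1375 and 0.09957). Of these, 1 had an unadjusted p under 0.05 and DESeq2 called 1, where it called 46.5% of all tested features. Without the first rPAL library SLC32A1 had an edgeR adjusted p of 0.02371. It then held 0 and 1 counts after rPAL and passed the filter through total RNA alone, so no call is read from it. ZMYM2 had an edgeR adjusted p of 0.01728 without the second rPAL library, with 0 and 6 counts left after rPAL. It too then passed the filter through total RNA, so no call is read from it. In these fits 40.6% and 44.1% of all tested features were called. NFE4, EXOC6B and ERVFRD-1, with at most 1 count in this pull-down, passed the filter with some libraries left out, through total RNA alone, and no call is read from them. In KG1a lEV, where 10.2% of all tested features were called, 5 loci were tested. The log2 fold changes ran from -4.53 for EXOC6B to -2.63 for ZMYM2, with edgeR adjusted p-values of 0.07263 to 0.2617 and 4 unadjusted p-values under 0.05. DESeq2 called 4, where it called 22.7% of all tested features. Each of the 5 loci had 0 to 2 counts in the third rPAL library and passed the count filter through total RNA. A fall was thus favoured in advance, and no DESeq2 call is read from these loci. Without the third KG1a rPAL library SLC32A1 was called (edgeR adjusted p = 0.03627), where 22.7% of all tested features were called. EXOC6B passed the threshold without the first (adjusted p = 0.03987), and ZMYM2 and ERVFRD-1 without the second (0.03246 and 0.02554). The library left out there held nearly all counts of the locus after rPAL. EXOC6B kept 0 counts, ERVFRD-1 kept 2 and ZMYM2 kept 5. They then passed the filter through total RNA alone, so no call is read from these 3 fits.

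Small and large vesicles were compared in total RNA, where again both groups had taken part in the choice of members. By edgeR without pairing, 0 of 5 tested loci were called in either line, where 7.21% of all tested features were called in HL60 and 5.31% in KG1a. In HL60, 1 locus had an unadjusted p under 0.05 and DESeq2 called 1, and in KG1a both counts were 2. EXOC6B averaged 32.1 ± 29.4 CPM in HL60 sEV and 2.78 ± 2.04 CPM in HL60 lEV without overlap (log2 fold change 2.54 ± 0.96, edgeR adjusted p = 0.1305). ERVFRD-1 averaged 11.7 ± 3.42 CPM in HL60 sEV and 1.9598 ± 1.38 CPM in HL60 lEV, also without overlap (log2 fold change 1.67 ± 0.79, edgeR adjusted p = 0.2244). In KG1a, replicates of the same number deviated together, and with the replicate as a block ZMYM2 was higher in sEV than in lEV (log2 fold change 1.45 ± 0.33, edgeR adjusted p = 0.01645, against 0.08164 without the block). With the block 14.4% of all tested features were called. NFE4 was lower in KG1a sEV than in KG1a lEV with the block (log2 fold change -1.73 ± 0.45, edgeR adjusted p = 0.02934, against 0.1368 without it). ZMYM2 averaged 64.2 ± 22.9 CPM in KG1a sEV and 12.6 ± 1.88 CPM in KG1a lEV. NFE4 averaged 9.06 ± 3.50 CPM in KG1a sEV and 21.5 ± 21.2 CPM in KG1a lEV, where 1 library at 46.1 CPM set the mean.

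The vesicle pull-downs of either line, which played no part in choosing the members, had too few counts for most loci. Between sEV and lEV rPAL RNA, 3 loci were tested in KG1a and 0 in HL60. ZMYM2, NFE4 and SLC32A1 had log2 fold changes of 0.82, 0.57 and 1.49 in KG1a, with edgeR adjusted p-values of 0.9649, 0.968 and 0.9315. None had an unadjusted p under 0.05, DESeq2 called 0, and the block left the count at 0. There 0.0267% of all tested features were called. Between HL60 and KG1a rPAL RNA, 0 loci passed the filter in lEV, and ZMYM2 alone did in sEV. It averaged 13.9 ± 23.8 CPM in HL60 sEV and 5.17 ± 4.51 CPM in KG1a sEV (log2 fold change 1.79 ± 2.37, edgeR adjusted p = 0.9988), where 0% of all tested features were called.

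Across the 38 libraries the loci moved together to different degrees, as correlations of log2(CPM + 1) that are given as a description since the libraries share their groups and the members were chosen for a shared pattern. NFE4 and SLC32A1, on chromosomes 7 and 20, were the closest pair, with Pearson's r = 0.944 over the libraries and 0.894 after group means were removed. The other 14 pairs had r of 0.579 to 0.892, and of -0.128 to 0.515 after group means were removed. The log2 ratio of NFE4 to SLC32A1 had an SD of 0.91 over the 29 libraries with enough counts of either, so they were not a fixed multiple of each other. The longest stretch of letters shared by transcripts of NFE4 and SLC32A1 was 12 bases on either strand, as short as for the other pairs, which shared 11 to 17.

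**Figure D4:**
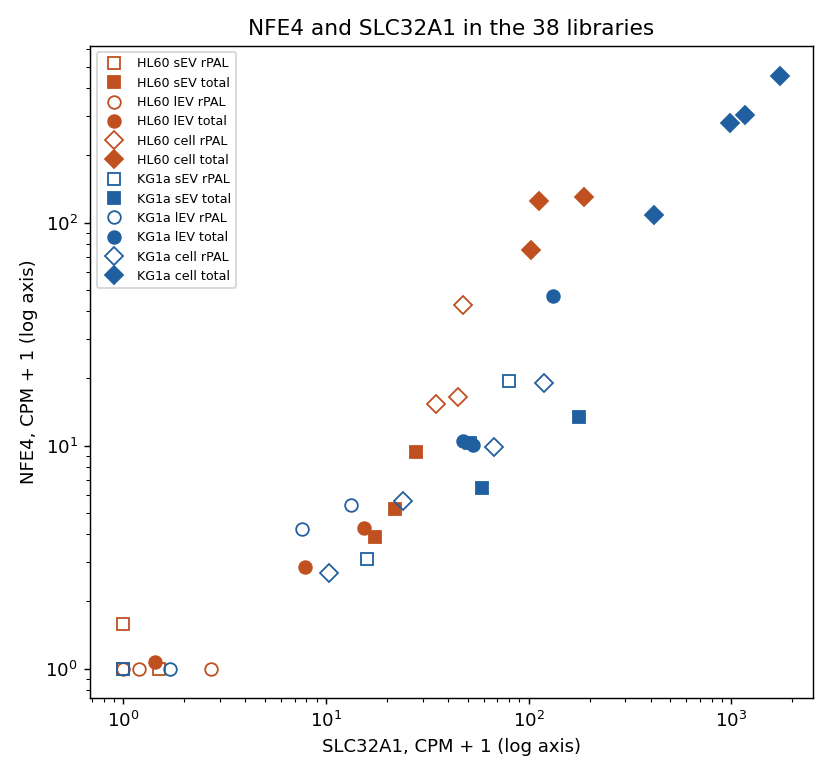
NFE4 against SLC32A1 in the 38 libraries, each as CPM + 1 on a log axis, with HL60 in orange, KG1a in blue, sEV as squares, lEV as circles, cells as diamonds, and rPAL libraries open. The points follow 1 band over the whole range (r = 0.944), and HL60 cell libraries lie above KG1a libraries of the same SLC32A1 level.

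For each locus the most similar features were named among 3141 with at least 1000 counts in all libraries. ZIM2 was closest to an RNAcentral noncoding RNA without a name (r = 0.978), CEP19, a centrosomal protein gene (0.963), and the noncoding RNA LINC01297 (0.951). ERVFRD-1 was closest to an unnamed noncoding RNA (0.979), MIR6842 (0.934) and MIR6747 (0.91), and ZMYM2 to an unnamed small nucleolar RNA (0.899), RBMX, a nuclear RNA-binding protein gene (0.881), and the noncoding AC051619.7 (0.872). SLC32A1 was closest to an unnamed noncoding RNA (0.963), followed by NFE4 (0.944), the ribosomal pseudogene RPL7AP4 (0.92) and CTC1, a gene of telomere maintenance (0.885). EXOC6B was closest to an unnamed miRNA entry (0.949), ERVFRD-1 (0.892), ZNF860 (0.863) and HIST1H3A (0.843), and NFE4, after SLC32A1 (0.944), to an unnamed miRNA entry (0.933), C8orf37-AS1 (0.876) and MT-RNR1 (0.862). No feature kept a fixed ratio to any of the loci, taken as an SD of the log2 ratio of at most 0.2.

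Annotated neighbours gave few counts. RefSeq placed no miRNA in any of the loci, and the nearest lay 341949 bases from ZMYM2. Of the overlapping genes that have a row in the table, each held 0 to 117 counts over all libraries, except RNU2-39P, a U2 snRNA copy inside EXOC6B on the opposite strand, with 706 counts against 14804 for EXOC6B. PEG3, on the same strand as ZIM2 and inside its span, held 117 counts against 6367. The strand setting of the counting is not given in the sources used here, so reads of a locus and of a gene opposite to it cannot be told apart.

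Among 2136 mature miRNAs of at least 20 bases, 1 matched a transcript of the loci with at most 2 mismatches on either strand. It was hsa-miR-4454, on the strand opposite to ERVFRD-1, in the 5′ UTR of exon 1 at chr6:11111688-11111707, bases 26 to 45 of the 3198-base transcript. Introns and small RNAs other than mature miRNAs were not searched. Both stretches are shown because this was the one match found in the transcripts. They are written 5′ to 3′ as DNA with the mismatched bases in capitals, from RefSeq for the miRNA and GENCODE 29 for the site.
hsa-miR-4454: gGatccgagtcacGgcacca
ERVFRD-1, opposite strand: gTatccgagtcacTgcacca
Counted from the 5′ end of the miRNA, the substitutions are G2T and G14T. Both end in CCA, as mature tRNAs do, and retroviral genomes are known to carry a site complementary to a tRNA 3′ end near their start. Of 33731 protein-coding and long noncoding genes, 15.1% matched some mature miRNA by the same rule and 0.0712% matched hsa-miR-4454. The MIR4454 gene had 1 count in all 38 libraries. Which reads were counted at ERVFRD-1 was not tested.

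Genes related to each locus had low levels in cell total RNA, here per kilobase of the longest GENCODE transcript. SLC32A1 averaged 419 CPM per kb in KG1a cells, while GAD1, there the highest of 9 genes of vesicular transmitter transport and GABA synthesis, averaged 0.403 CPM per kb. ERVFRD-1 averaged 6.71 CPM per kb in HL60 cells and 86.4 CPM per kb in KG1a cells. The highest of 7 other retroviral envelope genes and the receptor gene MFSD2A averaged 0.2 CPM per kb in HL60 (MFSD2A) and 0.173 CPM per kb in KG1a (ERVK13-1). EXOC6B averaged 9.88 CPM per kb in HL60 cells and 35.4 CPM per kb in KG1a cells, against 0.347 CPM per kb for EXOC7 in HL60 and 1.12 CPM per kb for EXOC2 in KG1a, the highest of the 11 exocyst genes listed. ZMYM2, NFE4 and ZIM2 were likewise 16.6 to 762 times as high as their highest listed relative. The loci were chosen for large falls from cell total RNA, which need a high level there, and the relatives were not. The gap between them is therefore a description only.

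Of 13 relatives tested between the cells of the lines 4 were called, or 30.8%, against 39.9% of all tested features. In cell total RNA, 0 of 3 tested MYM-type zinc finger genes, 0 of 1 PEG3 domain genes and 0 of 1 envelope genes were called. Of 2 tested NFE and globin genes, NFE2L1 was higher in HL60 cells (log2 fold change 1.55, edgeR adjusted p = 0.002212). Of 5 tested exocyst genes, EXOC3 was higher (2.25, edgeR adjusted p = 0.002131) and EXOC2 lower (-3.37, edgeR adjusted p = 2.964e-06). GAD1, which makes GABA, was the 1 tested gene of its list and was lower in HL60 cells (-4.24, edgeR adjusted p = 5.713e-05), as SLC32A1 was.

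**Figure D5:**
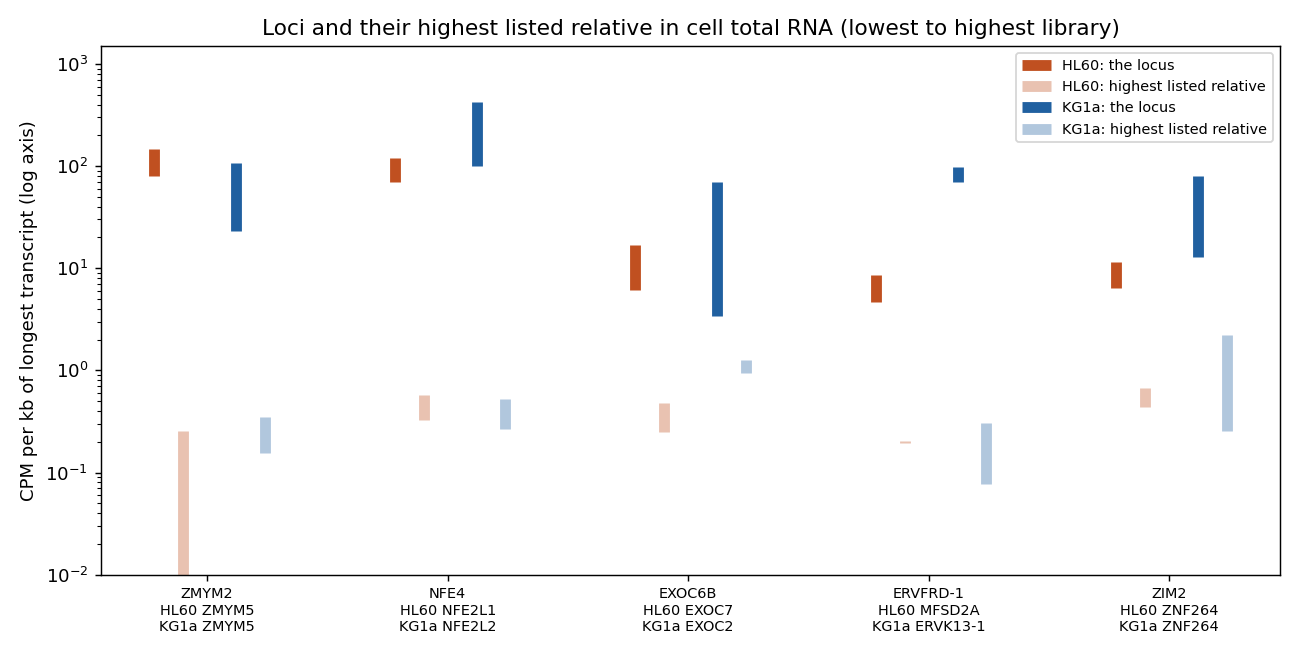
Range over libraries of CPM per kilobase of the longest transcript in cell total RNA, on a log axis, for 5 of the loci, without SLC32A1 (dark bars), and for the highest gene of its list of relatives (pale bars, named under the axis), with HL60 in orange left of KG1a in blue. Every dark bar lies above its pale bar, and a pale bar that reaches the bottom includes a library at 0.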

How the data were processed

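The authors deposited raw read counts per feature, all of them whole numbers, and these were the counts tested. Per the submitters' processing notes, Bowtie2 and the GRCh38 (hg38) build were used. The sources used here do not name the versions, the counting program, its strand setting, the annotation release or the rule for reads that match several places. All 38 columns matched a labelled sample. No pair of replicates agreed within sampling noise (lowest chi-square per feature 31.9). GENCODE 29 gave a symbol to 57355 of 90127 features, and its GRCh38 coordinates are printed. Sequences are from RefSeq (GRCh38.p14) and GENCODE 29.

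CPM is per library total. Each comparison was fitted over all features in its 2 groups with edgeR 4.0.16 in R 4.3.3 (TMM, filterByExpr, robust quasi-likelihood test), adjusted by Benjamini-Hochberg over all features tested and called under 0.05. SE is the log2 fold change divided by the square root of F. Fits were tested on simulated data. DESeq2 1.42.0, other scalings, no filter, a replicate block and left-out libraries were alternatives. CPM, correlations and matches were computed in Python 3.11.15 with pandas 2.3.3.

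The members and lists were chosen with earlier results of these data known. The 6 contrasts of vesicle total RNA or cell rPAL RNA with cell total RNA chose them, and for the members these are given as values without calls. Named genes are the 6 loci, genes that overlap them, the 3 features with a symbol and the 1 without that correlate best with each, and called members of lists of relatives. Lists of MYM-type zinc finger, PEG3 domain, NFE and globin, exocyst, envelope and transmitter genes and of line markers were used. The level of the highest relative of SLC32A1 in HL60 cells is not reported here.

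Same-numbered replicates deviated together by more than 0.1 in every pair only between sEV and lEV of KG1a (correlations 0.188 to 0.465 in total RNA and 0.159 to 0.323 in rPAL RNA), a pairing that comes from the data and not from the labels.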

Additional observations from a re-analysis of the deposited data

How the results depend on the processing

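The count of loci called, over the contrasts that did not choose them, stayed within 1.5 times its value in 110 of 144 alternatives and moved further in 34. In lEV total RNA, HL60 over KG1a, 3 loci were called, and 5 with the replicate block, without the count filter and with DESeq2. Of all tested features 16.1% were called in the main fit, and 16.1%, 3.56% and 17.7% in these 3 settings. For rPAL over total RNA in KG1a lEV, 0 became 2 with RLE size factors, 2 with the replicate block, 4 with DESeq2 and 0 to 2 with 1 library left out. The share of all tested features called was 10.2% in the main fit, then 12.4%, 3.98%, 22.7% and 0% to 29.1%. In KG1a sEV, 2 became 1 without the filter and 0 to 2 with 1 library left out, while the share of all features went from 6.61% to 0.0511% and 0% to 2.27%. In HL60 lEV, 0 became 1 with the block, 1 with DESeq2 and 0 to 4 with 1 library left out. The share of all features went from 31.3% to 19.9%, 46.5% and 5.84% to 46.5%. In HL60 sEV, 3 became 0 with the block, 0 without the filter and 0 to 1 with 1 library left out. Here the share of all features went from 18.8% to 8.9%, 0.491% and 2.59% to 6.14%. For sEV over lEV total RNA, 0 became 1 without TMM, 2 with the block, 1 without the filter and 2 with DESeq2 in KG1a, and 1 without TMM, 1 without the filter and 1 with DESeq2 in HL60. Over all alternatives 0 to 1500 features were called in KG1a, against 408 (5.31%) in the main fit. In HL60 these were 0 to 1824, against 419 (7.21%). For rPAL over total RNA in vesicles the loci called include ones that passed the filter through total RNA alone. The causes were not tested.

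Of 869 values for single loci 21 changed sign, none of them a called value. Leaving out TMM turned EXOC6B to -0.0873 for HL60 over KG1a in sEV total RNA, and EXOC6B to 0.78, ERVFRD-1 to 0.44 and SLC32A1 to 0.32 for sEV over lEV in KG1a total RNA. It moved the median of all features by -0.78 and 0.88 in these contrasts, by -0.94 for the lines in lEV and by 0.99 for sEV over lEV in HL60. With 1 library left out, the lines in sEV total RNA gave -1.01 to 0.0391 for ZMYM2, -0.62 to 0.15 for NFE4 and -0.21 to 1.25 for EXOC6B. Likewise sEV over lEV in KG1a total RNA gave -0.81 to 0.0084 for EXOC6B and -1.42 to 0.12 for SLC32A1, and in KG1a rPAL RNA -0.93 to 2.68 for ZMYM2, -1.68 to 0.84 for NFE4 and -0.22 to 1.76 for SLC32A1. For the lines in sEV rPAL RNA, ZMYM2 became -0.28 with the replicate block and -4.25 to 2.49 with 1 library left out, its lowest without the first HL60 library. A group left with 2 libraries shares its spread with the other. Where a pull-down held 0 to 3 counts, depth allows only an upper limit, which covers counting error only.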

Other observations

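Listed relatives were also tested in the contrasts that chose the loci, where the comparisons of a line share its cell total RNA libraries. ZNF264, a zinc finger gene of the PEG3 domain near ZIM2, was lower in all 6, and 9.86% to 28.5% of all tested features were called lower in these. It was the 1 tested gene of its list of 6 in every contrast except HL60 sEV, where PEG3 had a log2 fold change of 1.45 ± 0.53 (SE, edgeR adjusted p = 0.07292). The log2 fold change of ZNF264 was -3.69 ± 0.60 in HL60 sEV and -2.79 ± 0.42 in HL60 lEV against HL60 cells, and -3.23 ± 0.85 in KG1a sEV and -3.81 ± 0.74 in KG1a lEV against KG1a cells (edgeR adjusted p = 0.003972, 0.0007983, 0.009334 and 0.0005283). After rPAL it was -1.46 ± 0.47 in HL60 cells and -4.38 ± 0.84 in KG1a cells (edgeR adjusted p = 0.03301 and 0.003872).

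Among MYM-type zinc finger genes, 1 of 3 tested was higher in KG1a sEV and 2 of 2 in KG1a lEV than in KG1a cells, where 23% and 23.8% of all tested features were called higher, and 0 were tested in HL60. ZMYM3 was higher in KG1a sEV (log2 fold change 2.87 ± 0.55) and in KG1a lEV (2.12 ± 0.54), and ZMYM4 in KG1a lEV (1.10 ± 0.43; edgeR adjusted p = 0.00173, 0.00358 and 0.04149). Among exocyst genes, 1 of 3 tested was higher in HL60 sEV, 1 of 4 in HL60 lEV, 2 of 4 in KG1a sEV and 0 of 3 in KG1a lEV, where 13.9%, 12.1%, 23% and 23.8% of all tested features were called higher. EXOC3 was higher in HL60 sEV (1.45 ± 0.43), HL60 lEV (1.49 ± 0.45) and KG1a sEV (2.56 ± 0.57), and EXOC7 in KG1a sEV (1.82 ± 0.45; edgeR adjusted p = 0.03668, 0.02644, 0.003935 and 0.006753). In KG1a sEV EXOC2 and EXOC5 had log2 fold changes of -0.88 and -0.68 (edgeR adjusted p = 0.1008 and 0.3036).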
